A study of Mus musculus with 4 samples.

Results

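The natriuretic peptide system was taken as 8 genes, the hormone genes Nppa, Nppb and Nppc, the receptor genes Npr1, Npr2 and Npr3, and the genes of the processing proteases Corin and Furin, of 32285 genes in the deposited matrices. The members were found by their gene symbol, and the rule used no measured value, although earlier results of these data were known when the set was chosen. The study collected left ventricle tissue of male wild-type C57BL/6J mice in 4 conditions, sham and I/R at a young and at an old age. Young mice were 3 to 5 months old and aged mice 24 to 26 months old, and I/R stands for 45 min of ischemia, made by tying the left anterior descending coronary artery, followed by 24 h of reperfusion. The 2 sham groups had no ischemia: the paper describes sham operations, and the sample labels call this tissue healthy. No transgene or drug was part of the design of these 4 libraries. There was 1 library for each condition, the number of mice behind each library is not given in the sources used here, and the labels name the molecule as nuclear RNA where the paper describes single cells. The question behind these comparisons is how the ventricle of young and of aged mice responds to I/R, and how age alone changes it.

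Natriuretic peptides are hormones that lower blood volume and pressure. Heart muscle makes ANP, the product of Nppa, chiefly in the atria, and BNP, the product of Nppb, and both genes are well known to be expressed more in ventricles under load or injury. The precursors are cut by the membrane protease corin and by furin, the hormones act through receptors that make cyclic GMP, and another receptor clears them from the circulation.

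Each value is a count of UMIs, the molecular tags that mark single captured transcripts, summed over every barcode of a library and divided by the library's total, given as UMIs per 1000000 UMIs (CPM). Where 4 values follow each other without names, they are young sham, then young I/R, then aged sham, then aged I/R. Totals were 25836175, 39673199, 41356670 and 66767829 UMIs, over 92200, 102883, 100342 and 91124 barcodes. Depth per barcode differed, with medians of 244, 374, 391 and 675 UMIs. At least 200 genes were detected in 28.4%, 55.2%, 67.9% and 98.8% of the barcodes. The nuclear transcript Malat1 took between 2.22% and 7.34% of the UMIs, the 13 mitochondrial genes between 9.98% and 15.6%, and Gm42418 between 11.5% and 19.4%. Between 7.44% and 7.92% of the barcodes of a library occurred in another library. The 18 cardiomyocyte markers, led by the sarcomere gene Ttn, summed to between 97288 and 120056 CPM, and all 18 were detected in each library. With 1 library per condition no test between conditions is possible. The intervals below are exact 95% intervals that cover counting error only, and fewer cells of a type and less RNA per cell cannot be told apart in these sums.

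Nppa and Nppb lie next to each other on chromosome 4 in the GENCODE annotation of GRCm38. Nppb occupies chr4:147985788-147987205 and Nppa chr4:148000722-148002079, both on the plus strand, with 13.516 kb between them. The 250 bases before the RefSeq start of each gene are shown because these 2 neighbours had the widest swings between libraries of the 7 genes other than Nppc. The RefSeq start of Nppb lies downstream of its GENCODE start, so the last part of that window falls inside the GENCODE gene. Capitals mark matches to the GATA motif (AGATAA and its variants TGATAA and AGATAG, and also TGATAG), to the NKE motif of Nkx2-5 (TNAAGTG) and to the M-CAT motif of the TEAD factors (CATTCC), each searched on both strands. The windows are chr4:148000472-148000721 for Nppa and chr4:147985650-147985899 for Nppb, plus strand, build GRCm38.p6.
Nppa: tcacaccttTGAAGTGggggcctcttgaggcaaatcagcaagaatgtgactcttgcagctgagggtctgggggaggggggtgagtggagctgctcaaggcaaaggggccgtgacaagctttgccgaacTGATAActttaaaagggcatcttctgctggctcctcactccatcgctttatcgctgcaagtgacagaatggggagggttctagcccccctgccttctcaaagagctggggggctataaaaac
Nppb: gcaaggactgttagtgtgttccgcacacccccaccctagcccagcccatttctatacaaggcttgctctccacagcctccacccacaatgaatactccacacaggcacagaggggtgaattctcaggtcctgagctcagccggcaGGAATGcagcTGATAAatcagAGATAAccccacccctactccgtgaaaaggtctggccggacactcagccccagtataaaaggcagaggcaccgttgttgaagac
The Nppa window held 1 GATA match, TGATAA, 122 bases before the start, and the NKE match TGAAGTG 241 bases before it. The Nppb window held 2 GATA matches, TGATAA at 95 and AGATAA at 84 bases before the start, and beside them an M-CAT match on the other strand at 105 bases. The TATA motif (TATAAA) stood 9 bases before the Nppa start and 31 bases before the Nppb start. Neither window held the AP-1 motif (TGANTCA) or the CArG motif. Of 32851 mouse promoters searched in the same way, 26.5% held a GATA match, 10.1% an NKE match, 12.6% an M-CAT match, 12.4% a TATA match, 6.75% an AP-1 match and 1.47% a CArG match.

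Nppa, which encodes the ANP precursor, had, in young mice, 335 CPM in sham (interval 328 to 342) and 1055 after I/R (1045 to 1065), and in aged mice 821 in sham (812 to 830) and 379 after I/R (374 to 383). The I/R library was the higher one in young mice and the lower one in aged mice, and no 2 intervals overlapped. Young I/R was 3.15-fold above young sham, or 1.66 on the log2 scale (1.62 to 1.69). Aged I/R was 2.17-fold below aged sham, or -1.12 (-1.14 to -1.09). Aged sham stood above young sham by 1.29 on the log2 scale (1.26 to 1.33), and aged I/R stood below young I/R, at -1.48 (-1.50 to -1.46). These 4 ratios share libraries, so a library that stood apart would enter 2 of them.

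Nppb, which encodes the BNP precursor, had, in young mice, 49.3 CPM in sham (46.6 to 52.1) and 205 after I/R (200.3 to 209), and in aged mice 124 in sham (120.4 to 127) and 132 after I/R (129 to 134). Its lowest library was young sham and its highest young I/R, as for Nppa, but the 2 aged libraries lay close together. Young I/R was 4.15-fold above young sham, or 2.05 on the log2 scale (1.97 to 2.14). Aged I/R over aged sham gave only 0.09 (0.04 to 0.14), and the sign of this small difference turned to -0.14 when cardiomyocyte marker UMIs were the denominator. Aged sham over young sham gave 1.33 (1.24 to 1.42), and aged I/R over young I/R gave -0.64 (-0.68 to -0.59). For both genes the log2 ratio between I/R and sham was lower in aged than in young mice. The aged minus young difference was -2.77 for Nppa (-2.81 to -2.73) and -1.97 for Nppb (-2.06 to -1.87).

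**Figure D1:**
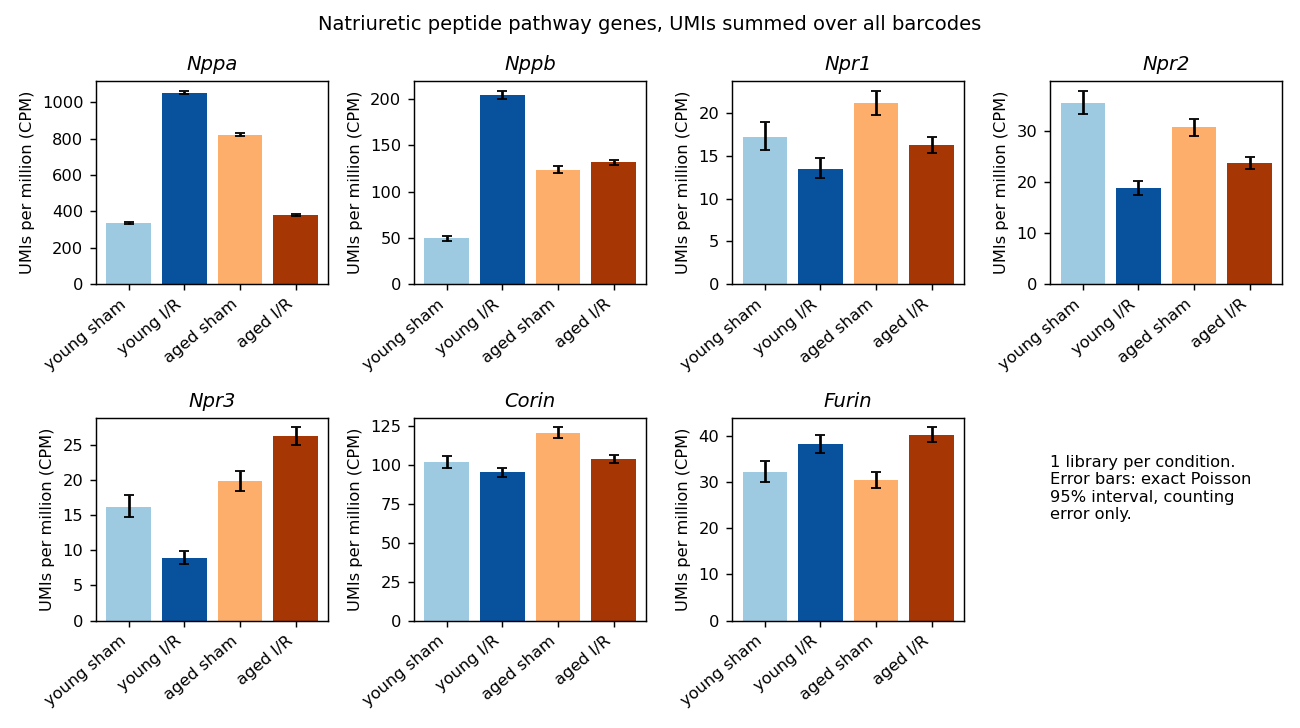
CPM of 7 natriuretic peptide genes in the 4 libraries, 1 bar per library from 0, with exact Poisson 95% intervals for counting error. Nppa and Nppb are lowest in young sham and highest in young I/R, Npr3 is lowest in young I/R and highest in aged I/R, and Corin and Furin differ little.

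Nppc, which encodes the C-type peptide of vessels, bone and other tissues, gave 5 UMIs in young sham and 3 after I/R, and at the old age 1 in sham and 5 after I/R. It lies on chromosome 1 (chr1:86666291-86670571). These counts are at or near the floor of 3 UMIs per library, so differences of Nppc were not detectable at this depth and no fold is given.

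The receptors Npr1 and Npr2 make cyclic GMP when a peptide binds. Npr1 (chr3:90450591-90465866), the receptor for ANP and BNP, had, in young mice, 17.3 CPM in sham (15.7 to 18.9) and 13.5 after I/R (12.4 to 14.7), and in aged mice 21.2 in sham (19.8 to 22.7) and 16.3 after I/R (15.3 to 17.2). At each age the I/R library was below its sham library, with log2 ratios of -0.35 in young and -0.38 in aged mice, although the young ratio turned to 0.05 when scaled by the median of gene-wise ratios. The difference between the ages, -0.03 (-0.26 to 0.19), included 0. The levels of Npr1 in young sham and aged I/R overlapped within counting error.

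Npr2 (chr4:43631935-43651244), the receptor for the C-type peptide, had, in young mice, 35.6 CPM in sham (33.3 to 37.9) and 18.8 after I/R (17.5 to 20.2), and in aged mice 30.7 in sham (29.1 to 32.5) and 23.8 after I/R (22.6 to 25.0). Both sham libraries were above both I/R libraries. The log2 ratio was -0.92 (-1.06 to -0.78) in young and -0.37 (-0.48 to -0.26) in aged mice, and the ratio of aged I/R over young I/R was 0.34 (0.22 to 0.47) but -0.01 under gene-wise scaling. The young ratio stood beside a median of -0.44 over all genes in that comparison.

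Npr3 (chr15:11839896-11907287) encodes the clearance receptor, which takes the peptides up and lacks the cyclase domain of the others. It had, in young mice, 16.2 CPM in sham (14.7 to 17.8) and 8.90 after I/R (7.99 to 9.88), and in aged mice 19.9 in sham (18.5 to 21.3) and 26.3 after I/R (25.0 to 27.5). No intervals overlapped, and the order was the reverse of that of Nppa in the I/R libraries, lowest in young I/R and highest in aged I/R. Its I/R to sham log2 ratio was -0.87 (-1.07 to -0.66) in young and 0.40 (0.28 to 0.52) in aged mice, a difference of 1.27 (1.03 to 1.51). Aged I/R over young I/R gave 1.56 (1.40 to 1.73), against a median of 0.43 over all genes.

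Scaled by total UMIs, no difference of the processing proteases Corin and Furin was 2-fold. Corin (chr5:72300025-72504473), the membrane protease of heart muscle that activates the ANP precursor, had, in young mice, 102 CPM in sham (97.9 to 106) and 95.3 after I/R (92.3 to 98.4), and in aged mice 121 in sham (117 to 124) and 104 after I/R (101 to 106). Young sham and aged I/R overlapped within counting error, and no ratio of Corin was past 0.25 in size on the log2 scale. Furin (chr7:80388585-80405436), the protease of the secretory pathway that cuts many precursors, had, in young mice, 32.2 CPM in sham (30.0 to 34.4) and 38.2 after I/R (36.3 to 40.2), and in aged mice 30.4 in sham (28.7 to 32.1) and 40.3 after I/R (38.8 to 41.8). Furin was higher in I/R at both ages, with log2 ratios of 0.25 (0.13 to 0.37) and 0.41 (0.31 to 0.50), while neither comparison of the ages separated its levels. With gene-wise scaling the young ratio of Furin was 0.65, and that of Corin turned from -0.09 to 0.31. Corin in young I/R over young sham and in aged I/R over young I/R, and Furin in both comparisons of the ages, changed sign with the scaling, so no direction is drawn from them.

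Among the members, Nppa, Nppb and Npr3 differed 2-fold in at least 1 comparison, and the others counted in none. Counting used a minimum of 100 UMIs in the pair of libraries, and 7 members reached that minimum in every comparison, all but Nppc. In young I/R over young sham, 2 members were at least 2-fold higher, Nppa and Nppb, where 2.43% of 12465 genes were, and 0 were 2-fold lower, where 22.0% of genes were. In aged I/R over aged sham, 0 members were 2-fold higher, against 3.58% of 13722 genes, and 1 was 2-fold lower, Nppa, against 1.5%. In aged sham over young sham, 2 members were 2-fold higher, again Nppa and Nppb, against 1.57% of 12901 genes, and 0 were lower, against 4.49%. In aged I/R over young I/R, 1 member was 2-fold higher, Npr3, against 16.8% of 13434 genes, and 1 was lower, Nppa, against 0.863%. The young I/R library carried lower ratios for most genes: the median of all genes was -0.44 on the log2 scale over young sham, 0.09 in aged I/R over aged sham, -0.14 in aged sham over young sham and 0.43 in aged I/R over young I/R. The medians of the 7 members were -0.09, -0.22, 0.29 and 0.12. Scaling by the median of gene-wise ratios changed the counts of genes 2-fold higher and lower from 303 and 2748 to 653 and 1232 in the first comparison, and from 491 and 206 to 374 and 280 in the second. In the aged over young comparisons it changed them from 203 and 579 to 319 and 375 in sham, and from 2261 and 116 to 1042 and 357 in I/R. The members past 2-fold numbered the same under that scaling.

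**Figure D2:**
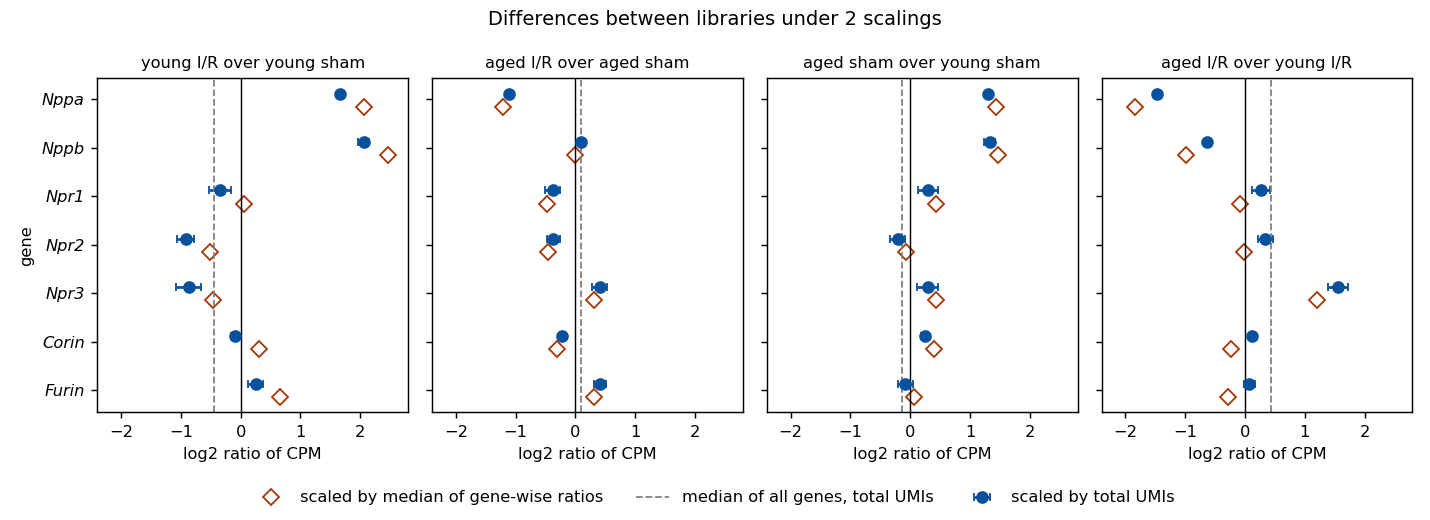
Log2 ratios of CPM for 7 members in 4 comparisons, scaled by total UMIs (filled circles, exact 95% intervals) or by the median of gene-wise ratios (open diamonds); the dashed line is the median of all genes. Nppa and Nppb stay to the right in young I/R over young sham, at 2.06 and 2.46 under the second scaling, where every point shifts by 0.41.

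The opposite directions of Nppa were also seen relative to heart muscle RNA. Per 1000 cardiomyocyte marker UMIs, Nppa had 3.07, 10.8, 8.0 and 3.15 UMIs in the 4 libraries, and Nppb had 0.452, 2.10, 1.21 and 1.10. The cardiomyocyte markers did not move as 1 group. The 9 that span under 20 kb in the genome held 33667, 33334, 38030 and 33063 CPM, and the 9 longer ones 75278, 63953, 64656 and 86993 CPM. The longer ones make up most of this denominator, and their sum was high in young sham and aged I/R, where Nppa was low. The members of this sum were not alike. Ttn had 31744, 18615, 18041 and 34439 CPM, but Myl3 had 5090, 6329, 6838 and 5148 CPM. After I/R in young mice the sum was lower, while 5 of the 9 longer markers were higher. With age among the sham libraries the sum was also lower, again with 5 of the 9 higher. After I/R in aged mice the sum and 6 of the 9 were higher. Per 1000 UMIs of the 9 shorter markers, a denominator chosen after seeing the data, Nppa had 9.94, 31.6, 21.6 and 11.5 UMIs. Malat1 took 7.34%, 2.22%, 2.88% and 4.33% of the UMIs, an order that is the reverse of that of Nppa. Its part in the differences of Nppa was not tested. With Malat1, Gm42418 and the mitochondrial genes left out of the totals, the log2 ratios of Nppa were 1.80 in young and -1.21 in aged mice.

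Since the atria make most ANP, the share of atrial tissue bears on Nppa in a ventricle sample. Of the 11 atrial markers, 11 were detected in 3 libraries and 10 in young I/R, where Bmp10, an atrial growth factor, was at 0. Bmp10 had 0.039, 0, 0.677 and 0.180 CPM, too few UMIs to be counted in any comparison. The young libraries held 1 UMI of it together, so its 0 in young I/R tells little. Like Nppa, Bmp10 was higher in aged sham than in young sham, on 29 UMIs over both. It was also lower in aged I/R than in aged sham, on 40 UMIs. Unlike Nppa, it was not lower in aged I/R than in young I/R, on 12 UMIs. The 11 markers summed to 226, 317, 214 and 178 CPM. The atrial myosin light chain gene Myl7 led this sum in 3 libraries and the channel gene Kcnj3 in aged I/R. The sum hides unlike members. The myosin light chain genes Myl7, with 48.8, 97.6, 46.9 and 32.5 CPM, and Myl4, with 48.2, 87.2, 38.6 and 34.9 CPM, and the calcium pump regulator gene Sln, with 21.3, 45.2, 18.9 and 11.2 CPM, were highest in young I/R and lowest in aged I/R. Like Nppa, all 3 were higher in I/R than in sham in young mice, with log2 ratios of 1.0 for Myl7, 0.85 for Myl4 and 1.09 for Sln, and lower in aged mice, at -0.53, -0.14 and -0.75. In aged sham over young sham, where Nppa stood 1.29 higher, their ratios were -0.06 for Myl7, with an interval that included 0, -0.32 for Myl4 and -0.17 for Sln. Kcnj3 had 48.0 CPM in young sham and 24.7 in young I/R. Of the 10 atrial markers with enough UMIs, 6 were higher and 4 lower in young I/R over young sham. After I/R in aged mice 2 were higher and 8 lower, with intervals that included 0 for Sbk2 (-0.28), Kcnj3 (-0.05), Kcna5 (-0.009) and Sbk3 (0.13). Of the 10 counted atrial markers, 0 were 2-fold higher or lower there, against 3.58% and 1.5% of all genes. With gene-wise scaling of the young comparison, Sbk2 (-0.16) and Dkk3 (-0.19), whose intervals included 0, turned to 0.24 and 0.22. Kcnj3 and Kcnj5 stayed lower, at -0.55 and -0.45. Sln (1.49), Myl7 (1.41), Myl4 (1.26) and Kcna5 (1.06) were then at least 2-fold higher, against 5.24% of all genes. In aged sham over young sham 3 were higher, Dkk3 (1.05), Kcna5 (0.67) and Stard10 (0.34). The other 7 were lower, of which Myl7 and Kcnj5 had intervals that included 0. In aged I/R over young I/R, where Nppa stood at -1.48, 3 were higher and 7 lower, and the interval of Kcna5 included 0. Of the 7, 4 were 2-fold lower, Sln (-2.01), Myl7 (-1.59), Myl4 (-1.32) and Sbk3 (-1.02), against 0.863% of all genes. With gene-wise scaling Stard10 (-1.08) and Sbk2 (-1.04) were 2-fold lower as well, against 2.66% of all genes. The part of atrial RNA in the differences of Nppa was not tested. Without barcodes that held at least 2 atrial markers, the log2 ratio of Nppa was 1.75 in young I/R over young sham and 1.40 in aged sham over young sham. Those barcodes were 0.450% of the barcodes of young sham and held 8.34% of its Nppa UMIs, and in the other 3 libraries they held between 1.03% and 2.57%. Leaving them out does not remove atrial RNA that lies in other barcodes.

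To ask where the members' UMIs sat, barcodes that held at least 2 different markers of exactly 1 list were compared with barcodes that held at least 2 of no list. Nppa was higher in atrial-marker barcodes in 4 of 4 libraries: 5066 CPM over 306 barcodes of young sham, 2455 over 647 of young I/R, 1870 over 270 of aged sham and 890 over 202 of aged I/R. Over the barcodes with none this was 16.5-fold in young sham and 2.37-fold, 2.25-fold and 2.37-fold in the others. A stricter minimum of 3 atrial markers left between 25 and 78 barcodes, where Nppa was 29.0-fold, 5.22-fold, 3.94-fold and 9.44-fold above the barcodes with none. Nppb did not follow: in the same atrial-marker barcodes it was between 0.833-fold and 1.20-fold of the barcodes with none, and all 4 intervals included no difference, on 6, 70, 13 and 18 UMIs. The interval in young sham reached from -1.28 to 1.29 on the log2 scale.

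In barcodes with markers of other cell types, the 2 hormone genes were nearly level with the rest. Such a group is a range of barcodes and not a cell type. In endothelial, fibroblast, macrophage and mural marker barcodes, Nppa was between 0.891-fold and 1.07-fold of the barcodes with none, and Nppb between 0.787-fold and 1.06-fold. The muscle gene Ttn behaved alike, between 0.923-fold and 1.07-fold, although these cell types do not make sarcomeres. A UMI of Nppa in a barcode was therefore not read as expression by a cell of the marked type. Thinned to 200 UMIs each, 5.78%, 18.3%, 15% and 7.09% of barcodes held Nppa, where 25914, 4608, 4424 and 0 shallower barcodes were left out. Without thinning the shares were 7.60%, 30.9%, 26.9% and 23.0%. In macrophage-marker barcodes, with a median of 327, 432, 447 and 689 UMIs before thinning, the thinned shares were 6.92%, 21.0%, 14.4% and 6.45%, and each of their intervals included the value of the whole library. How far these shares reflect background RNA was not tested, and they give no count of Nppa-expressing cells.

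**Figure D3:**
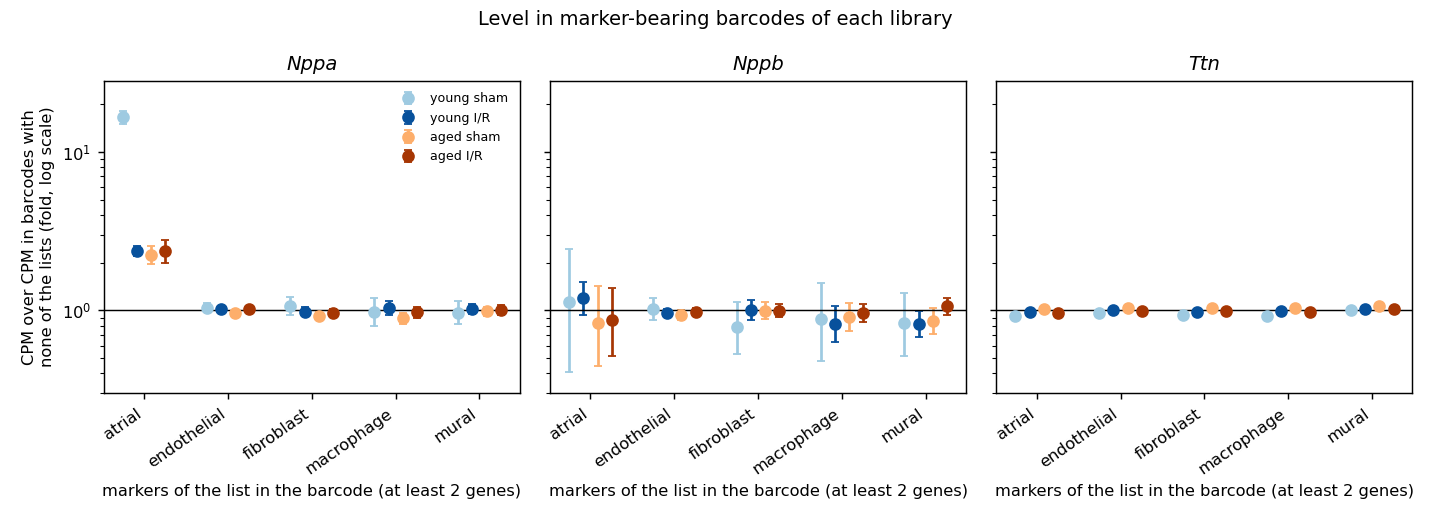
CPM of Nppa, Nppb and Ttn in barcodes with at least 2 markers of 1 list, as a fold of the CPM in barcodes with none (log axis), 1 point per library with exact 95% intervals. Nppa lies between 2.25-fold and 16.5-fold in atrial-marker barcodes, and all other points lie between 0.787-fold and 1.20-fold.

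Few differences of the receptors between these kinds of barcode stood beyond counting error. Ttn was nearly level in the endothelial, fibroblast, macrophage and mural marker barcodes. Level values of the receptors and proteases there therefore cannot show that a gene lacked a preference for a cell type. Npr1, known for its expression in endothelium, had 27.3 CPM in endothelial-marker barcodes of young sham against 14.9 in barcodes with none, 1.83-fold, and between 0.997-fold and 1.17-fold in the other 3 libraries. Npr3 was above the barcodes with none in the endothelial-marker barcodes of young I/R, 1.39-fold on 77 UMIs, and in the macrophage-marker barcodes of aged sham, 1.98-fold on 31 UMIs, and in neither case in another library. Npr1 was also higher in the atrial-marker barcodes of young sham and aged I/R, 3.13-fold and 3.22-fold, but on 5 and 8 UMIs. Npr2 was 1.74-fold higher in the fibroblast-marker barcodes of young I/R, on 30 UMIs, and its intervals included no difference in the other 3 libraries. Corin stayed between 0.747-fold and 1.20-fold in all 5 kinds of barcode, with intervals that included no difference in every library. Furin was 1.77-fold higher in the atrial-marker barcodes of young I/R, on 19 UMIs, and 1.30-fold in the fibroblast-marker barcodes of aged sham, on 85 UMIs. Many such intervals were looked at, so some would miss no difference by counting error alone. Of these higher values, with at least 3 markers only Npr1 in endothelial-marker barcodes of young sham kept an interval above no difference, at 2.17-fold on 34 UMIs. The sums of endothelial markers (1954 to 2421 CPM), fibroblast markers (677 to 1118 CPM), macrophage markers (379 to 687 CPM) and mural cell markers (586 to 814 CPM) were each lowest in young I/R, the library where Npr1, Npr2 and Npr3 were lowest, and their part in the receptor levels was not tested. These sums and levels were scaled by total UMIs, and most genes were low in young I/R. The median log2 ratio of all genes was -0.44 in young I/R over young sham. With gene-wise scaling Npr1 in young I/R was no longer below young sham. All 19 endothelial, 16 fibroblast, 21 macrophage and 9 mural markers were detected in each library.

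Nppa UMIs were also unevenly spread over barcodes. Barcodes with at least 5 Nppa UMIs numbered 98, 225, 118 and 74, and held 7.76%, 3.37%, 2.21% and 2.08% of the gene's UMIs. No barcode held 5 Nppb UMIs, but Nppb had only 1273, 8121, 5119 and 8794 UMIs in the 4 libraries. This minimum therefore cannot compare how the 2 genes were spread. The atrial markers had 6923, 2079, 739 and 1234 CPM in these Nppa-rich barcodes against 187, 280, 206 and 172 in barcodes with no Nppa UMI. The sum of these markers was thus higher in Nppa-rich barcodes in all 4 libraries, on 294, 248, 49 and 95 UMIs. The paper used 2 of them, Myl4 and Myl7, as cardiomyocyte markers. It also named Nppa and Nppb as such markers, apart from its comparison of aged and young sham. Whether the UMIs of the atrial markers came from atrial cells was not tested. The cardiomyocyte markers had 116297, 97308, 103018 and 121581 CPM in the Nppa-rich barcodes against 108773, 97148, 102748 and 119838. Nppb had 94.2, 209.6, 226 and 156 CPM in the Nppa-rich barcodes, on 4, 25, 15 and 12 UMIs, against 48.6, 205, 123 and 130 in barcodes with no Nppa UMI.

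**Figure D4:**
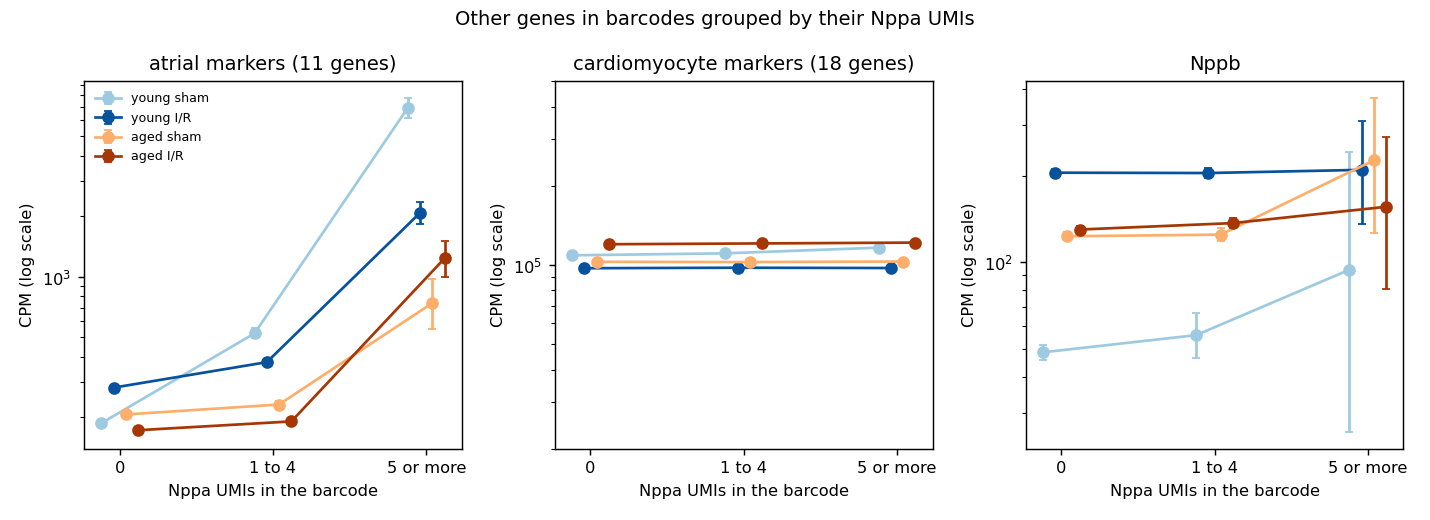
CPM (log axes) of the 11 atrial markers, the 18 cardiomyocyte markers and Nppb in barcodes grouped by their number of Nppa UMIs, 1 line per library with exact Poisson 95% intervals. The atrial markers climb to between 739 and 6923 CPM in barcodes with 5 or more Nppa UMIs, and the cardiomyocyte markers stay level.

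The other genes of the system were taken as 3 lists, whose counts stand beside these shares of all genes 2-fold higher and lower. They were 2.43% and 22.0% in young I/R over young sham, and 3.58% and 1.5% in aged I/R over aged sham. In aged sham over young sham they were 1.57% and 4.49%, and in aged I/R over young I/R 16.8% and 0.863%. The processing list holds 8 genes for related convertases, peptide-degrading proteases and the like, of which 7 were counted and Ostn, a decoy ligand of the clearance receptor, fell under the minimum. In young I/R over young sham 0 were 2-fold higher and 4 were 2-fold lower, with a list median of -1.25 beside -0.44 for all genes. Among all genes 22.0% were 2-fold lower there. They were the peptidase gene Dpp4, with 0.580 CPM against 4.49 and a log2 ratio of -2.95 (-3.67 to -2.30), and the convertase genes Pcsk6 (-1.38), Pcsk5 (-1.30) and Pcsk7 (-1.25). With gene-wise scaling Dpp4 alone stayed past 2-fold, and the other 3 were at -0.98, -0.89 and -0.84. Of the 7, none in aged I/R over aged sham was past 2-fold, from -0.70 for Pcsk6 to 0.71 for Pcsk5, with a list median of -0.05. In aged sham over young sham none was either, from -0.92 for Pcsk7 to 0.68 for the insulin-degrading enzyme gene Ide, with a median of -0.47. With age among the I/R libraries, Dpp4 (2.06) and Pcsk5 (1.28) were 2-fold higher, where 16.8% of all genes were, and 0 lower, with a median of 0.69 beside 0.43. Pcsk5 was at 0.93 with gene-wise scaling.

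The cyclic GMP list holds 15 genes downstream of or beside the receptors, of which 13 or 14 were counted. In young I/R over young sham 0 were 2-fold higher and 2 were 2-fold lower, Gucy1a2 (-1.44), a subunit of soluble guanylate cyclase, and the phosphodiesterase gene Pde5a (-1.01), with a list median of -0.76 beside -0.44 for all genes. These 2 of 13 are 15.4% of the list, below the 22.0% of all genes that were 2-fold lower, and Pde5a was at -0.60 with gene-wise scaling. Between the aged libraries none of 14 was past 2-fold, from -0.30 for Pde2a to 0.39 for Gucy1b1, with a median of 0.13. In aged sham over young sham none of 13 was, from -0.58 for Pde1c to 0.39 for Rgs2, with a median of -0.16. With age among the I/R libraries, Pde3b (1.11) and Gucy1b1 (1.10) were 2-fold higher and 0 lower, with a median of 0.67 beside 0.43. Their 15.4% of the list is near the 16.8% of all genes, and with gene-wise scaling they were at 0.76 and 0.74, neither past 2-fold.

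The third list holds 14 genes, transcription factors of heart muscle that are known to act on the Nppa and Nppb promoters and the load-responsive muscle gene Ankrd1, and all 14 were counted. In young I/R over young sham 1 was 2-fold higher, Ankrd1, with 3042 CPM against 1059 and a log2 ratio of 1.52 (1.50 to 1.54). Among all genes 2.43% were 2-fold higher there. Mef2c (-1.41) and Mef2a (-1.24), both MADS-box factors, were 2-fold lower, and the list median was -0.48 beside -0.44. These 2 are 14.3% of the list, below the 22.0% of all genes, and Mef2a was at -0.83 with gene-wise scaling. Among the factors whose motifs stand in the 2 promoter windows, Gata4 had 39.0 CPM in young sham and 21.4 in young I/R (-0.86), Gata6 had 91.0 and 57.6 (-0.66), and Nkx2-5 had 43.8 and 48.7 (0.15). Tead1 had 229.9 and 211 CPM (-0.12), a difference that turned to 0.28 with gene-wise scaling. Under that scaling Gata4 was at -0.46, Gata6 at -0.25 and Nkx2-5 at 0.56. Between the aged libraries, scaled by total UMIs, Gata4 was at -0.07, Gata6 at 0.52, Nkx2-5 at -0.22 and Tead1 at 0.07. In aged I/R over aged sham none of 14 was past 2-fold, from -0.22 for Nkx2-5 to 0.92 for Srf, with Ankrd1 at 0.91 and a list median of 0.17. In aged sham over young sham none was, from -0.77 for Srf to 0.87 for Ankrd1, which was at 1.01 with gene-wise scaling, with a median of -0.27. With age among the I/R libraries 1 was 2-fold higher, Mef2a (1.02, and 0.66 with gene-wise scaling), and 0 lower, with a median of 0.50. This 1 gene is 7.14% of the list, below the 16.8% of all genes. Ankrd1 was thus higher in I/R at both ages, where Nppa was higher in young and lower in aged mice.

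**Figure D5:**
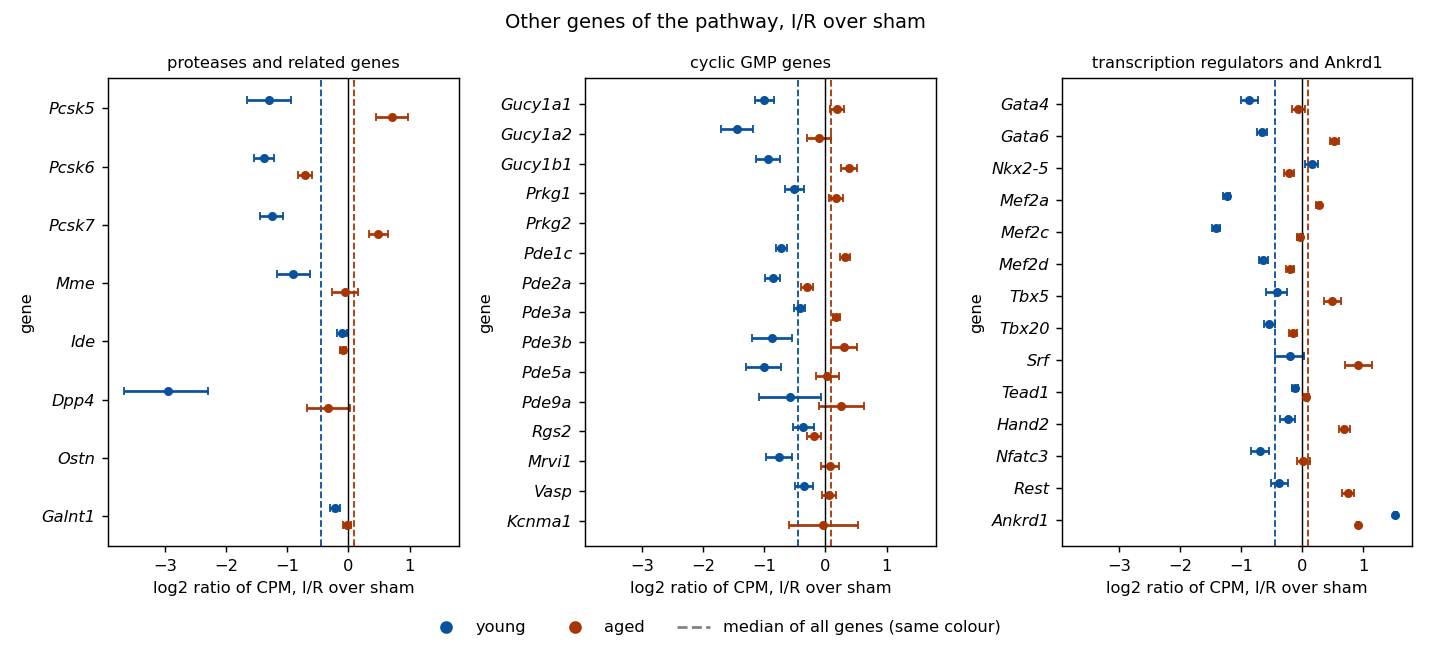
Log2 ratios of CPM, I/R over sham, for the genes of 3 lists in young (blue) and aged (orange) mice with exact 95% intervals; dashed lines are the medians of all genes (-0.44 and 0.09), and genes under 100 UMIs are left blank. Most young values lie left of 0 and most aged values near it, and Ankrd1 lies right of 0 at both ages.

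Annotated genes within 50 kb of the Nppa and Nppb pair include Plod1, 2510039O18Rik, Gm13054 and Clcn6. Plod1 had 67.1 CPM in young sham and 32.2 in young I/R, which is -1.06 on the log2 scale (-1.16 to -0.95). Among all genes 22.0% were 2-fold lower there. None of these 4 was 2-fold higher in any comparison, where between 1.57% and 16.8% of all genes were. Clcn6, the gene next to Nppa on the side away from Nppb, had a log2 ratio of -0.32 in young I/R over young sham. In that comparison the median of all genes was -0.44, and Nppa had 1.66 and Nppb 2.05. The antisense gene Gm13054 overlaps Nppa, and it held 17, 44, 41 and 59 UMIs in the 4 libraries. The use of strand in the counting is not given in the sources used here, so reads of the 2 could be confused, but Gm13054 reached at most 1.11 CPM.

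The genes most alike Nppa across the 4 libraries, by the distance between log2 CPM values centred on each gene's mean, were Vmn1r224, B930094E09Rik, Gm10800, the LIM protein gene Fhl3 and the amino acid transporter gene Slc7a5, at distances from 0.25 to 0.50 among 14480 genes. Vmn1r224 rests on 100 UMIs and B930094E09Rik on 112 over all libraries, and Fhl3, with 5.92, 12.5, 10.7 and 6.47 CPM, on 1523. Among those most alike Nppb were Cd24a, the small Maf factor gene Maff, the stress cytokine gene Gdf15 and Scgb3a1, at distances from 0.20 to 0.31. Gdf15 had 1.08, 5.72, 2.76 and 2.94 CPM and Maff 1.55, 5.37, 3.24 and 3.73. Nppa and Nppb were 1.0 apart by the same measure. The genes named here were picked as the nearest outside the members, so this distance is not ranked against theirs. With 4 libraries as points, these distances are a description.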

How the data were processed

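The authors made 10× Chromium libraries of left ventricle and aligned reads to mm10 with Cell Ranger 6.0.2; the use of introns or strand and the annotation release are not given in the sources used here. The deposited matrices hold a raw UMI count per gene and barcode, as whole numbers, 1 matrix per condition. Groups came from the labels. All deposited barcodes were summed without doublet removal or clustering, and the authors' cell names were not used. Ratios of CPM have exact conditional 95% intervals, levels exact Poisson intervals, shares exact binomial intervals, all for counting error only; differences between ages combine 2 ratio intervals. Genes needed 100 UMIs over both libraries to be counted. The 8 members and all gene lists were chosen with earlier results of these data known. All members were named; of each list, genes past 2-fold (at most 3 a direction), otherwise the highest and lowest; the 5 genes most alike Nppa and Nppb; neighbours within 50 kb. Some genes under this rule are not reported here. Gata4, Gata6, Nkx2-5 and Tead1 were named for the promoter motifs after their values were seen. Myl4, Sln, Bmp10, Kcnj3, Kcnj5, Sbk2, Sbk3, Dkk3, Kcna5, Stard10, Pcsk7, Gdf15, Maff and Fhl3 were given in more detail, also after their values were seen. Of 32285 gene IDs, 32158 matched GENCODE vM21. Promoters came from RefSeq (GRCm38.p6). Alternatives were other scalings, denominators, barcode filters and marker minimums. Python 3.11.15, numpy 2.4.6, scipy 1.17.1 and pandas 2.3.3 were used. The code for the log2 ratio and its interval was tested on simulated counts for young I/R over young sham.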

Additional observations from a re-analysis of the deposited data

Results flagged for a closer look

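Nppa stood out because its I/R difference went opposite ways at the 2 ages: the aged minus young difference in log2 ratio was -2.77 (1.66 in young and -1.12 in aged). Npr3 stood out for the same reason in the other direction, with a difference of 1.27 (-0.87 in young and 0.40 in aged). With 1 library per condition the difference between the ages was not tested for either gene, and the intervals given with it cover counting error only.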

How the results depend on the processing

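No paired analysis was possible because each condition has 1 library. For the same reason leaving out a replicate could not be tried, and 1 unusual library could change every comparison it enters. For Nppa and Nppb the 4 comparisons and the difference between the ages (10 results) kept their sign under 7 alternatives, except Nppb in aged I/R over aged sham, and the values below are log2 ratios in the order I/R over sham in young mice, the same in aged mice, aged over young in sham mice, aged over young in I/R mice, and the aged minus young difference of the I/R ratios. Scaling by the median of gene-wise ratios gave 2.06, -1.21, 1.44, -1.83 and -3.27 for Nppa and 2.46, -0.0022, 1.47, -0.99 and -2.46 for Nppb. Totals without Gm42418, Malat1 and mitochondrial genes gave 1.80, -1.21, 1.37, -1.64 and -3.01 for Nppa, and for Nppb 2.20, -0.00070, -0.80 (aged I/R over young I/R) and -2.20 (difference). Cardiomyocyte markers as the denominator gave 1.82, -1.34, 1.38, -1.78 and -3.16 for Nppa, and for Nppb 2.22, -0.14, -0.94 (aged I/R over young I/R) and -2.35 (difference). The 9 markers under 20 kb as the denominator, chosen after seeing the data, gave -0.91, 1.12 and -2.59 for Nppa (aged I/R effect, age in sham, and difference) and 0.29, 1.15 and -1.78 for Nppb. Barcodes with at least 200 detected genes gave 1.70 and -1.50 for Nppa (young I/R effect and age in I/R), and leaving out barcodes with at least 2 atrial markers gave 1.75, 1.40 and -2.87 (young I/R effect, age in sham, and difference). Leaving out barcodes found in more than 1 library moved none of the 10 beyond its interval. For Npr3 the difference between the ages was 0.77 under gene-wise scaling and 0.88 per cardiomyocyte marker. Of the 30 results of the other members, 22 kept their sign under gene-wise scaling and 24 with the cardiomyocyte denominator. Npr1 in mural-marker barcodes of young I/R went from -1.52 on 3 UMIs to 0.37 on 1 UMI with at least 3 markers, and both intervals included 0. With gene-wise scaling, chosen for the lists after seeing the data, genes 2-fold lower in young I/R over young sham numbered 1 in each of the processing, cyclic GMP and regulator lists, those 2-fold higher among the I/R libraries with age 1, 0 and 0, and regulators 2-fold higher with age among the sham libraries 1. With 1 UMI in each library as the only minimum, genes 2-fold higher and lower numbered 908 and 5777, 1679 and 1523, 1176 and 2246, and 4526 and 1074 in the 4 comparisons. The cause of these shifts was not tested.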
